A study of Mus musculus with 6 samples.

Results

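Klk1b11, Prss35, Hbegf, Slc39a2, Arg2 and Gja5 are 6 of the 23282 genes counted in RNA of mouse blood-forming cells, and they were listed because their counts were much lower in MLL-AF9 cells labelled Mll4 deleted than in MLL-AF9 cells with intact Mll4. The genes were chosen by their read counts in those 2 groups, so these levels are given as a description and carry no test. Mll4, also called Kmt2d, methylates histone H3 at lysine 4, mostly at enhancers, the DNA elements that raise transcription from a distance. MLL-AF9 is a fusion oncogene that turns bone marrow cells into leukaemia-like cells that keep growing in culture.

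All cells came from mice of a mixed 129/Sv x C57BL/6 background, and read counts were given for 9 libraries. The MLL-AF9 cells labelled Mll4 deleted (2 libraries) carried Mll4 f/f alleles and a Cre retrovirus, and the intact ones (2 libraries) carried Mll4 f/f alleles and an empty retrovirus. Both were sorted 5 days after that infection, their protocol gives MxCre for the marrow, and Cre cannot be told apart from the deletion. In a separate transformation, marrow labelled MLL4-/- received MLL-AF9-neo with a FOXO3 retrovirus (2 libraries) or with an empty vector (1 library). FOXO3 is a transcription factor of stress resistance and growth arrest. These MLL-AF9 cultures had all grown for 14 days, with no age of the mice given. LSK cells, the marrow fraction rich in stem and early progenitor cells, were sorted from polyIC-treated MxCre littermates of 2 months with Mll4 f/f alleles (labelled deleted, 1 library) or wild type alleles (1 library). About 50 picked cells and PCR gave each LSK library, so the levels in LSK and MLL-AF9 libraries are not on a common footing.

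The 9 libraries held 25895041 to 61950773 counts. Levels are in CPM, counts scaled by the library total, and a count of 0 allows up to 3 counts, which is 0.116 CPM in the LSK library labelled Mll4 deleted, 0.113 CPM in the wild type one and 0.0484 to 0.0946 CPM in MLL-AF9 libraries. Such limits, and the intervals given later, reflect counting error alone, because PCR copies of a molecule are not independent. No label states that the libraries of 1 sample are separate cultures, so the p-values cover the spread between libraries alone. The libraries of the deleted pair, like those of the intact pair, differ in Xist (given with the values by Xist) and thus in the cells they hold, whereas the spread of the FOXO3 pair may be technical. The FOXO3 libraries lay far closer to each other (chi-square of 1.97 per degree of freedom) than the pair labelled Mll4 deleted (191) or the intact pair (146), and results with the FOXO3 pair summed into 1 library are given where they differ. Kmt2d itself was counted at 95.6 and 73.7 CPM in the deleted pair and 79.5 and 61.7 CPM in the intact pair, summed over the whole gene, which does not check the deletion. In the cells labelled MLL4-/-, called Mll4-null here after that label, it was counted at 102 and 115 CPM with FOXO3 and at 116 CPM with the empty vector, the highest of the MLL-AF9 libraries. Foxo3 stood at 1292 and 1309 CPM in the FOXO3 libraries and at 27.3 CPM in the empty-vector library.

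The 6 genes do not form a pathway. Klk1b11 belongs to the glandular kallikreins, a cluster of secreted serine proteases that is much expanded in the mouse and best known from salivary gland. Prss35 encodes a secreted protein of the serine protease fold whose catalytic site is altered. Hbegf encodes heparin-binding EGF-like growth factor, a membrane-bound ligand of the EGF receptor that ADAM proteases cut free and that macrophages are known to make. Slc39a2 encodes a zinc importer of the ZIP family. Arg2 encodes mitochondrial arginase, which splits arginine into ornithine and urea. Gja5 encodes a connexin, a gap junction channel best known from arterial endothelium and the atria of the heart.

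Both intact libraries lay above both libraries labelled Mll4 deleted for each of the 6 genes, as did 15.6% of the 14997 genes tested, a share from which nothing is read here because these libraries chose the genes. Every one of the 6 passed the filter on low counts, and that too follows from the high intact levels. In the fit over all 7 MLL-AF9 libraries the log2 fold changes, deleted over intact, lay between −4.75 for Klk1b11 and −3.29 for Gja5, at rank 66 to rank 162 from the lowest of the 14997 genes. The list has no threshold of its own, and Gja5 marks its weakest fall. Each log2 fold change is printed with its SE after ±.

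**Figure D1:**
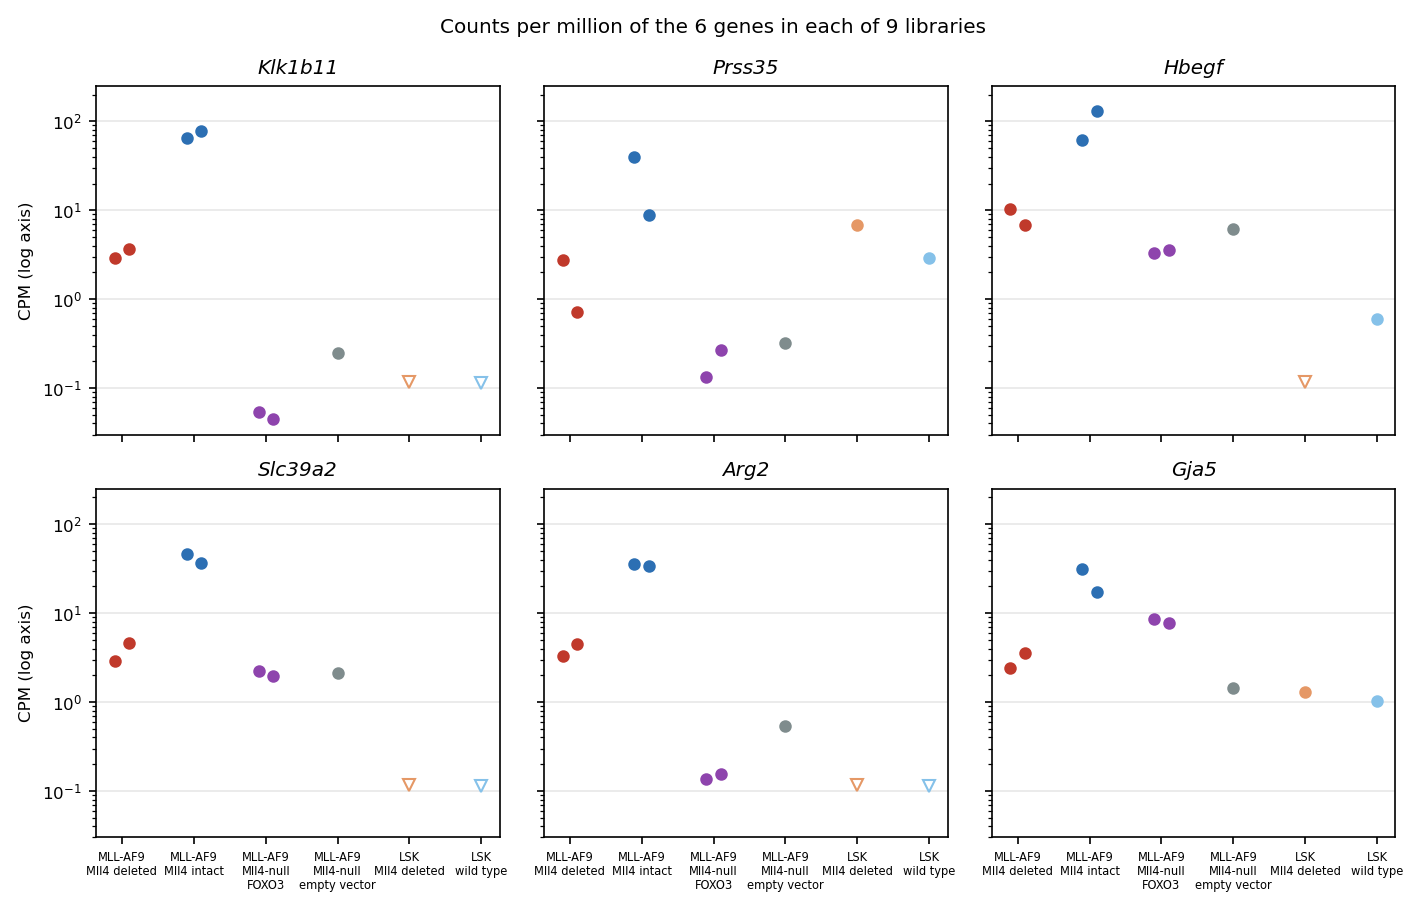
CPM of the 6 genes (log axis) in each of the 9 libraries, 1 panel per gene and 1 point per library; open triangles mark libraries with 0 counts, drawn at the level of 3 counts. In each panel both intact MLL-AF9 libraries lie above the other MLL-AF9 libraries, and Gja5 is the gene whose FOXO3 libraries (8.66 and 7.69 CPM) lie well above the empty-vector library (1.45 CPM).

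Among the proteases, Klk1b11 (NCBI gene 16613) had 2.89 and 3.63 CPM in the libraries labelled Mll4 deleted, against 64.3 and 78.3 CPM in the intact libraries. The log2 fold change was −4.75 ± 0.23, the largest fall of the 6, and the pairs were tight, with the 2 libraries of a pair within 1.26-fold of each other. In the Mll4-null cells of the other transformation its level was lower again, with 2 counts in each FOXO3 library (0.0539 and 0.0446 CPM) and 13 counts in the empty-vector library (0.248 CPM). In LSK cells it had 0 counts in both libraries.

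Prss35 (244954) was the least even of the 6 genes. It had 2.79 and 0.725 CPM with Mll4 deleted and 39.7 and 8.81 CPM in the intact pair, so that library 1 was 3.85-fold above library 2 among the deleted and 4.50-fold above it among the intact. The groups did not overlap, but the gap between the lowest intact and the highest deleted library was 3.15-fold, smaller than the differences within the pairs. Its log2 fold change was −3.97 ± 0.90, and leaving out 1 library moved it to −5.22 (deleted library 1), −3.35 (deleted library 2), −2.66 (intact library 1) or −4.65 (intact library 2). In Mll4-null cells it stood at 0.135 and 0.267 CPM with FOXO3 and at 0.324 CPM with the empty vector.

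Hbegf (15200), the growth factor ligand, had 10.5 and 6.91 CPM in the libraries labelled Mll4 deleted, against 62.0 and 130.1 CPM in the intact libraries. The intact libraries differed 2.10-fold from each other, and the lowest of them was 5.93-fold above the highest deleted library. Its log2 fold change was −3.77 ± 0.46, and −3.03 without intact library 2. With FOXO3 it stood at 3.32 and 3.56 CPM, against 6.15 CPM with the empty vector, a level close to those of the libraries labelled Mll4 deleted.

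Slc39a2 (214922), the zinc importer, had 2.89 and 4.60 CPM in the libraries labelled Mll4 deleted, against 45.7 and 36.3 CPM in the intact libraries, a log2 fold change of −3.74 ± 0.27. It was the flattest gene among the Mll4-null cells, with 2.21 and 1.96 CPM in the FOXO3 libraries and 2.11 CPM in the empty-vector library. Both LSK libraries had 0 counts.

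Arg2 (11847), the mitochondrial arginase, had 3.26 and 4.48 CPM in the libraries labelled Mll4 deleted, against 35.7 and 34.3 CPM in the intact libraries. The intact pair lay within 1.04-fold, the closest intact pair of the 6 genes, and the log2 fold change was −3.46 ± 0.21. With FOXO3 it had 5 and 7 counts (0.135 and 0.156 CPM), against 28 counts with the empty vector (0.533 CPM). Exons of Arg2 overlap those of Vti1b and Gm48780 in the GENCODE M21 annotation, and the sources used here do not say whether strand was used in counting, so some of its reads may be theirs. Vti1b stood at 73.4 and 68.8 CPM in the deleted pair and 103.7 and 103.8 CPM in the intact pair. That is a far smaller fold than that of Arg2, but a difference of similar size in CPM. The part of Vti1b reads in the counts of Arg2 was not tested.

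Gja5 (14613), the connexin, had 2.44 and 3.56 CPM in the libraries labelled Mll4 deleted, against 31.5 and 17.2 CPM in the intact libraries, a log2 fold change of −3.29 ± 0.33. Of the 6 genes it alone had both FOXO3 libraries above the empty-vector library in Mll4-null cells, with 8.66 and 7.69 CPM in the FOXO3 libraries and 1.45 CPM in the empty-vector library. The FOXO3 libraries thus lay between the intact libraries and those labelled Mll4 deleted. Exons of Gja5 overlap those of Gpr89 in GENCODE M21. Gpr89 had 20.2 and 22.9 CPM with Mll4 deleted and 15.2 and 16.4 CPM in the intact pair, the opposite order to Gja5.

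Per kilobase of exon (GENCODE M21), the mean intact level was highest for Klk1b11, at 82.6 CPM per kilobase, followed by Hbegf at 40.4, Arg2 at 24.5, Slc39a2 at 17.6, Prss35 at 7.04 and Gja5 at 4.28 CPM per kilobase. In the libraries labelled Mll4 deleted the same scale ran from 0.511 for Prss35 and 0.527 for Gja5 to 3.77 CPM per kilobase for Klk1b11. Klk1b11 and Hbegf therefore headed the order in both groups, and Prss35 and Gja5 closed it.

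The pairs labelled Mll4 deleted and intact each held 1 library with high Xist, an RNA that coats the inactive X chromosome of female cells (771 CPM in deleted library 1 and 687 CPM in intact library 2), and 1 library with little (2.21 CPM in deleted library 2 and 1.08 CPM in intact library 1). All 6 genes were lower in the deleted library within both kinds of cells. That order was fixed beforehand, because both intact libraries lay above both deleted ones for each gene, so only the sizes are described. For Prss35 the gap was 3.15-fold in the Xist-high cells, with 2.79 CPM deleted and 8.81 CPM intact, and 54.7-fold in the Xist-low cells, with 0.725 CPM deleted and 39.7 CPM intact. For the other 5 genes the gaps lay between 7.05-fold and 27.1-fold.

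The empty-vector library, made in the separate transformation of MLL4-/- marrow, was not used to choose the genes, although the intact libraries it is set against were. It lay below both intact libraries for all 6 genes, against 33.4% of the genes tested, and at least 8-fold below both for all 6, against 7.06%. The lowest intact library was 10.1-fold above it for Hbegf, 11.9-fold for Gja5, 17.2-fold for Slc39a2, 27.2-fold for Prss35, 64.4-fold for Arg2 and 259.8-fold for Klk1b11. These counts too are a description, because the intact libraries helped to choose the 6 genes, and the genes behind the shares were not so chosen. The transformation, the vectors and the selection also differ between these cells, and cannot be told apart from the genotype.

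FOXO3 expression in Mll4-null cells is the contrast that did not choose the genes, and here they split. The empty-vector group is 1 library, and the FOXO3 libraries are of 1 sample and lie close to each other. The spread in this test therefore comes from the deleted and intact pairs as well as the FOXO3 pair, and the lone library is assumed to vary like them. Gja5 rose and Arg2 fell in the quasi-likelihood test of edgeR, Benjamini-Hochberg adjusted over 14997 genes, and the other 4 genes did not pass, but with the FOXO3 pair summed into 1 library none of the 6 passed. Of all genes tested, 2.20% were called higher and 4.93% lower. The FOXO3 pair lay below the empty-vector library for 4 of the 6 genes (Klk1b11, Prss35, Hbegf and Arg2), against 45.3% of all genes.

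The log2 fold change of Gja5, FOXO3 over empty vector, was 2.45 ± 0.43 (adjusted p = 0.0309, higher in 2 of 2 libraries), and the count ratio was 5.61 (95% exact binomial interval 4.42 to 7.22). With the FOXO3 pair summed, where 0.213% of all genes were called higher and 0.974% lower, the call was lost (adjusted p = 0.12), as it was without FOXO3 library 1 (adjusted p = 0.138) or library 2 (adjusted p = 0.125). The log2 fold change of Arg2 was −1.89 ± 0.35 (adjusted p = 0.0345, lower in 2 of 2 libraries), from 12 counts with FOXO3 and 28 with the empty vector, a count ratio of 0.275 (0.127 to 0.558). Its call was lost with the pair summed (adjusted p = 0.152), without either FOXO3 library (adjusted p = 0.207 without library 1 and 0.186 without library 2) and without either intact library (adjusted p = 0.0718 without library 1 and 0.0734 without library 2).

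Klk1b11 had a log2 fold change of −2.32 ± 0.55 (adjusted p = 0.0706) from 4 and 13 counts, a count ratio of 0.197 (0.0468 to 0.638). It passed under total-count scaling (adjusted p = 0.0451), with DESeq2 (0.0487) and in the fit of the 3 compared libraries alone (0.0189), but not with the FOXO3 pair summed (adjusted p = 0.183) or without FOXO3 library 1 (0.232) or library 2 (0.298). Hbegf had −0.88 ± 0.52 (adjusted p = 0.387), with a count ratio of 0.561 (0.477 to 0.661), and it passed in the fit of the compared libraries alone (adjusted p = 1.46e-09), whose spread comes from the FOXO3 pair only. Prss35 had −0.70 ± 1.41 (adjusted p = 0.834) from 17 counts in each group. Slc39a2 had −0.07 ± 0.32 (adjusted p = 0.934), and the interval of its count ratio, 0.768 to 1.26, leaves room for a modest change in either direction.

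**Figure D2:**
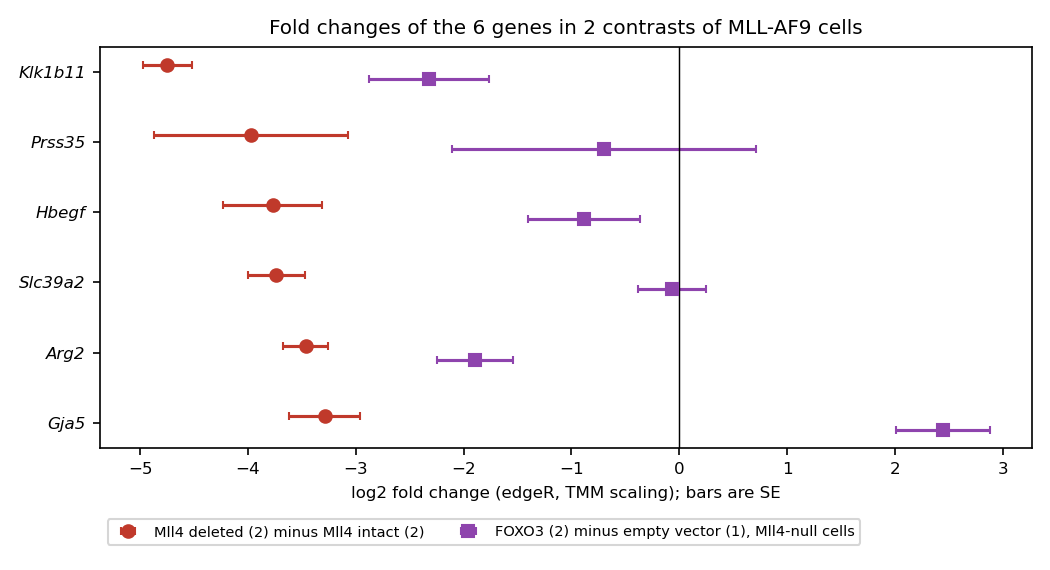
Log2 fold changes of the 6 genes with SE bars (edgeR, TMM scaling): circles, Mll4 deleted (2 libraries) minus intact (2); squares, FOXO3 (2 libraries) minus empty vector (1) in Mll4-null cells. All circles lie between −4.75 and −3.29, the range for which the genes were listed, whereas the squares run from −2.32 for Klk1b11 to 2.45 for Gja5.

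In LSK cells, with 1 library per genotype and no test, 3 of the 6 genes were seen. Prss35 had 175 counts (6.76 CPM) in the library labelled Mll4 deleted and 78 counts (2.93 CPM) in the wild type library, a log2 ratio of 1.20 (95% exact binomial interval 0.81 to 1.61), the opposite direction to MLL-AF9 cells. Gja5 had 34 counts (1.31 CPM) in the library labelled Mll4 deleted and 27 (1.02 CPM) in wild type, a log2 ratio of 0.37 (−0.40 to 1.16). Hbegf had 0 counts in the library labelled Mll4 deleted and 16 (0.602 CPM) in wild type. With the 0 set to 3 counts and the 16 taken as exact, that is 5.19-fold lower, which is not a lower bound. Klk1b11, Slc39a2 and Arg2 had 0 counts in both, so no difference was detectable at this depth. Kmt2d, summed over the whole gene, had 13.9 CPM in the library labelled Mll4 deleted and 1.88 CPM in wild type. That difference was larger than that of Prss35, and it does not check the deletion.

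The other genes of the Klk1b11 cluster also had lower counts with Mll4 deleted. Of 13 other glandular kallikreins, 12 passed the filter on low counts and Klk1b26 did not. All 12 were called lower in the libraries labelled Mll4 deleted by edgeR, with a median log2 fold change of −4.96, against 6.94% of all genes called lower and a median of −0.03. With the FOXO3 pair summed, 6 of the 12 were called (Klk1, Klk1b1, Klk1b4, Klk1b16, Klk1b22 and Klk1b24), against 0.854% of all genes. The family was looked at because Klk1b11 is one of the 6, in the contrast that chose it, so its count is not independent of that choice, and a kallikrein passes the filter through its intact libraries. The count and the median are therefore a description and support nothing.

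Sequence bears on this, since reads of near-identical copies may be shared in counting. Of the 50-base windows of the Klk1b11 transcript (GENCODE M21), 10.4% also occur in another kallikrein transcript. Klk1b22 shares none of its 50-base windows with Klk1b11 and serves as the comparison. Of its windows 13.3% occur in another kallikrein transcript, so its counts may hold shared reads as well. The promoters of Klk1b11 and Klk1b22 are printed to show how alike the copies are. They are RefSeq sequences of GRCm38.p6, from 250 bases before to 50 bases after the start of the gene, on the plus strand. Capitals mark bases that differ or have no partner in the alignment of the pair, which is identical in 83.6% of its columns.
Klk1b11, chr7:43995627-43995926: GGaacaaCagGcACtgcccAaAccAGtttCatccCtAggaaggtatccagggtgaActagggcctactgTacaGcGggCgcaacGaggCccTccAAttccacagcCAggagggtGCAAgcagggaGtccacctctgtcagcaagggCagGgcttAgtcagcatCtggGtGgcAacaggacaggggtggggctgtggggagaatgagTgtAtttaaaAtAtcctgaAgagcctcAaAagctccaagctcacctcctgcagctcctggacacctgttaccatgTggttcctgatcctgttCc
Klk1b22, chr7:44112423-44112722: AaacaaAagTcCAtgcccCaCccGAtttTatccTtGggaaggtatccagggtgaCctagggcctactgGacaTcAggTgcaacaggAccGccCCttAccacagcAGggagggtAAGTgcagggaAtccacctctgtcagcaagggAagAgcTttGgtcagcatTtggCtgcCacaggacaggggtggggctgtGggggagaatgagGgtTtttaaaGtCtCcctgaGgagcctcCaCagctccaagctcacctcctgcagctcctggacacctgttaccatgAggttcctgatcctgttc
The aligned identity of the promoters of the other kallikreins to that of Klk1b11 ran from 43.7% for Klk1, the gene best known as tissue kallikrein, to 90.4% for Klk1b16. Columns with a gap count as not identical, and the alignment of Klk1 had 182 of them, against 4 for Klk1b16. These values thus mix unpaired bases with changed ones and do not rank the promoters by distance. The promoter of Klk1b11 held none of 6 short motifs that were searched on both strands and are spelled out with the promoter of Gja5.

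Klk1b22 had 1 count in each library labelled Mll4 deleted (0.0161 and 0.0315 CPM), against 4.34 and 5.72 CPM in the intact libraries. The count ratio was 0.00424, with a 95% exact binomial interval of 0.000512 to 0.0154. Klk1b1, with the next highest CPM after Klk1b11, had 0.210 and 0.473 CPM with Mll4 deleted and 8.77 and 10.0 CPM in the intact pair (log2 fold change −5.13 ± 0.45). Klk1 had 0.129 and 0.126 CPM with Mll4 deleted and 2.47 and 3.25 CPM in the intact pair (−4.75 ± 0.42), and Klk1b4 had 0.113 and 0.0946 CPM with Mll4 deleted and 3.22 and 3.50 CPM in the intact pair (−5.24 ± 0.40). In each of these genes both deleted libraries lay below both intact libraries.

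Klk1b11 took most of the kallikrein counts in both groups. Its share was 71.0% (95% exact binomial interval 65.0% to 76.6%) and 75.7% (68.0% to 82.2%) of the counts of 14 kallikreins in the libraries labelled Mll4 deleted, and 67.0% (65.6% to 68.3%) and 66.4% (65.1% to 67.6%) in the intact libraries. The other 13 genes together had 1.18 and 1.17 CPM in the libraries labelled Mll4 deleted, against 31.7 and 39.7 CPM in the intact ones. In Mll4-null cells they held 4 and 11 counts with FOXO3 and 4 counts with the empty vector, too few for a fold, and edgeR called 0 of the 12 there, with 0 also below an unadjusted p of 0.05. The smallest adjusted p were 0.418 for Klk1, 0.466 for Klk1b5 and 0.493 for Klk1b9.

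**Figure D3:**
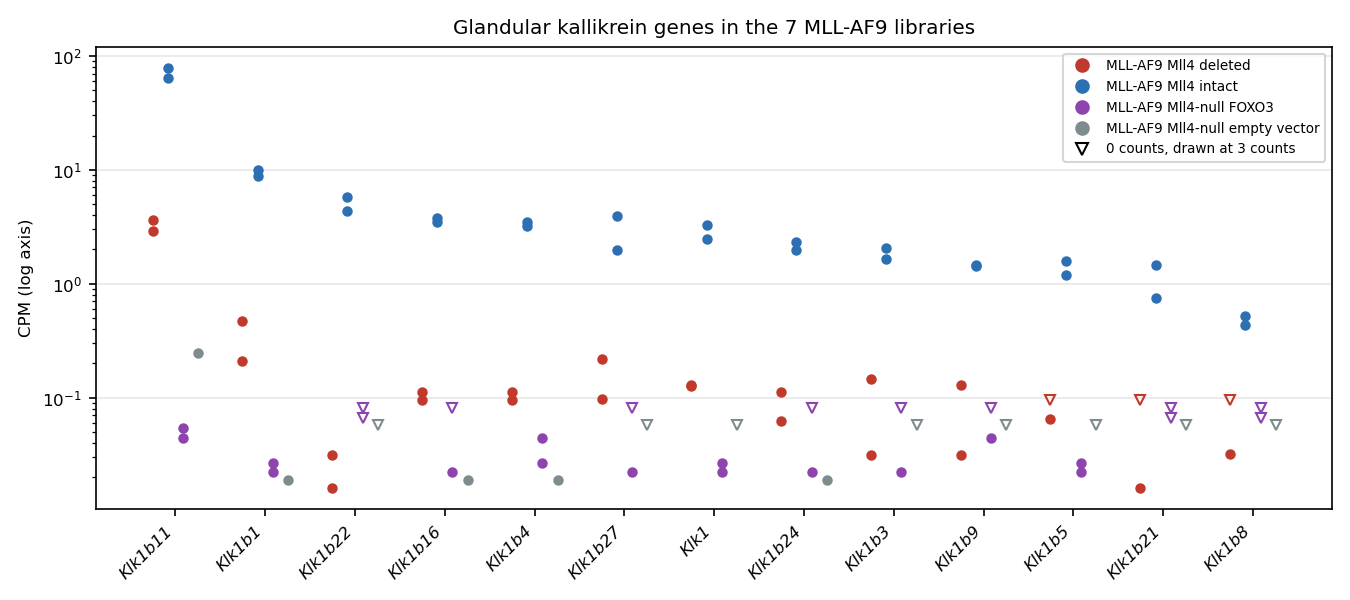
CPM (log axis) of Klk1b11 and the 12 other glandular kallikreins with counts, in the 7 MLL-AF9 libraries, ordered by mean intact level; open triangles mark libraries with 0 counts, drawn at the level of 3 counts. Each gene's intact libraries lie above its other libraries, and Klk1b11, at 64.3 and 78.3 CPM in the intact pair, has the highest CPM of the family.

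Relatives of the other members are given by list. Of all genes tested, Mll4 loss called 7.97% higher and 6.94% lower, and FOXO3 called 2.20% higher and 4.93% lower. Prss23, a relative of Prss35, had at most 2 counts in any library. For Hbegf, the list of EGF family ligands, receptors and the ADAM proteases that shed them had 15 of 19 genes tested. With Mll4 loss edgeR called 0 of the 15, while Ereg, Adam9 and Adam17 were the 3 with an unadjusted p under 0.05, and the median was 0.33. Ereg, another EGF receptor ligand, had 0.823 and 0.568 CPM with Mll4 deleted and 0.125 and 0.141 CPM in the intact pair (log2 fold change 2.10 ± 0.54, adjusted p = 0.0686), the opposite order to Hbegf. Areg, a further ligand, had 1.10 and 0.284 CPM with Mll4 deleted and 0.249 and 0.546 CPM in the intact pair, which overlap. Adam17, the main protease that releases such ligands, had 149 and 166 CPM with Mll4 deleted and 162 and 190 CPM in the intact pair (−0.45 ± 0.16, adjusted p = 0.107), and the related protease gene Adam9 had −0.77 ± 0.23 (adjusted p = 0.0752). Egfr, the receptor that Hbegf binds, stayed at or below 0.189 CPM in all 9 libraries. In the FOXO3 contrast 1 of the 15 genes was called, the receptor gene Erbb3, near the 4.93% of all genes called lower. Erbb3 had 0.162 and 0.201 CPM with FOXO3 and 9.04 CPM with the empty vector (−5.66 ± 0.42, adjusted p = 0.00309), a call kept with the pair summed. Next in order of p were Areg (−5.28 ± 1.14, adjusted p = 0.0544) and Adam17 (−0.71 ± 0.19, adjusted p = 0.0875), which did not pass.

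For Slc39a2, 25 of 27 zinc transporter and metallothionein genes were tested, and with Mll4 loss 2 fell, with a list median of −0.07. That share, 2 of 25, is near the 6.94% of all genes called lower. These were the importer Slc39a3, with 12.9 and 15.8 CPM with Mll4 deleted and 20.0 and 19.3 CPM in the intact pair (log2 fold change −0.73 ± 0.15, adjusted p = 0.035), and the exporter Slc30a4 (−0.94 ± 0.23, adjusted p = 0.0478). Neither call was kept with the FOXO3 pair summed. Slc39a1, a widely expressed importer of the same family, did not pass, with 75.5 and 120.2 CPM with Mll4 deleted and 88.2 and 103.9 CPM in the intact pair. The metallothionein genes Mt1 (0.11 ± 0.16, adjusted p = 0.677) and Mt2 (−0.31 ± 0.45, adjusted p = 0.664), which rise with free zinc, did not pass either, nor did the zinc exporter Slc30a1 (−0.25 ± 0.41, adjusted p = 0.708). Mt3, a further metallothionein gene, had 0.694 CPM in both libraries labelled Mll4 deleted and 0.104 and 0.101 CPM in the intact pair, and just missed the threshold (2.45 ± 0.61, adjusted p = 0.0518). In the FOXO3 contrast Slc30a4 fell, with 0.027 and 0.0891 CPM with FOXO3 and 1.16 CPM with the empty vector (−4.24 ± 0.42, adjusted p = 0.00638), and the other 24 did not pass. That share, 1 of 25, is near the 4.93% of all genes called lower. Next in order of p were the importer Slc39a14 (−0.87 ± 0.19, adjusted p = 0.052) and Mtf1, the zinc-sensing transcription factor (0.71 ± 0.18, adjusted p = 0.0813).

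For Arg2, 22 of 26 genes of arginine, ornithine and polyamine metabolism were tested, with a list median of −0.05 for Mll4 loss and 2 genes called higher, against 7.97% of all genes (1 gene with the FOXO3 pair summed, against 1.23%). Gatm, which uses arginine to make a creatine precursor, rose, with 218 CPM in both libraries labelled Mll4 deleted and 58.4 and 76.0 CPM in the intact libraries (log2 fold change 1.41 ± 0.19, adjusted p = 0.0133, kept with the pair summed). Srm, spermidine synthase, rose (1.02 ± 0.20, adjusted p = 0.0285) and Sat1, which acetylates polyamines for breakdown, fell (−0.82 ± 0.15, adjusted p = 0.0263), and the other 19 did not pass. Sat1 was the 1 gene of 22 called lower, against 6.94% of all genes. Arg1, the cytosolic arginase, overlapped between the groups, with 689 and 1606 CPM with Mll4 deleted and 1495 and 1420 CPM in the intact pair (−0.62 ± 0.38, adjusted p = 0.307). In Mll4-null cells Arg1 fell with FOXO3 as Arg2 did, to 0.108 and 0.0668 CPM, against 18.4 CPM with the empty vector (−7.75 ± 0.66, adjusted p = 0.0046, kept with the pair summed). Ass1, argininosuccinate synthase (−4.38 ± 0.47, adjusted p = 0.00755), and Smox, spermine oxidase (−2.95 ± 0.37, adjusted p = 0.0116), fell as well, and the arginine importer Slc7a1 rose (0.63 ± 0.13, adjusted p = 0.0438), 3 calls that the fit with the pair summed did not make. With FOXO3, 3 of the 22 were thus called lower, against 4.93% of all genes, and 1 higher, against 2.20%. Odc1, which turns ornithine into putrescine, passed in neither contrast (0.36 ± 0.12, adjusted p = 0.0888 for Mll4 loss, and −0.20 ± 0.14, adjusted p = 0.463 for FOXO3), nor did Nos2, the inducible nitric oxide synthase that also uses arginine, which stayed at or below 3.82 CPM.

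For Gja5, 4 of the 20 other connexin and pannexin genes reported were tested, and with Mll4 loss Gja1 rose and none fell, with a list median of 0.37. Gja1 was the 1 call of the 4 in each contrast. Of all genes, 7.97% were called higher with Mll4 loss and 4.93% lower with FOXO3. Gja1, the most widely expressed connexin, had 21.2 and 15.7 CPM with Mll4 deleted and 6.94 and 7.50 CPM in the intact pair (log2 fold change 1.07 ± 0.21, adjusted p = 0.0291). The call was not kept with the FOXO3 pair summed. Gja5 and Gja1 thus stood in opposite order in both contrasts: with FOXO3, Gja1 fell to 0.162 and 0.156 CPM, against 13.3 CPM with the empty vector (−6.40 ± 0.31, adjusted p = 0.00131, kept with the pair summed), where Gja5 was higher with FOXO3. Gja4, known beside Gja5 in arterial endothelium, stayed at or below 0.297 CPM in every library. Panx1, a pannexin, passed neither for Mll4 loss (−0.09 ± 0.15, adjusted p = 0.727) nor for FOXO3 (0.19 ± 0.19, adjusted p = 0.623), and for FOXO3 the connexin Gjc3 did not pass either (adjusted p = 0.791).

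**Figure D4:**
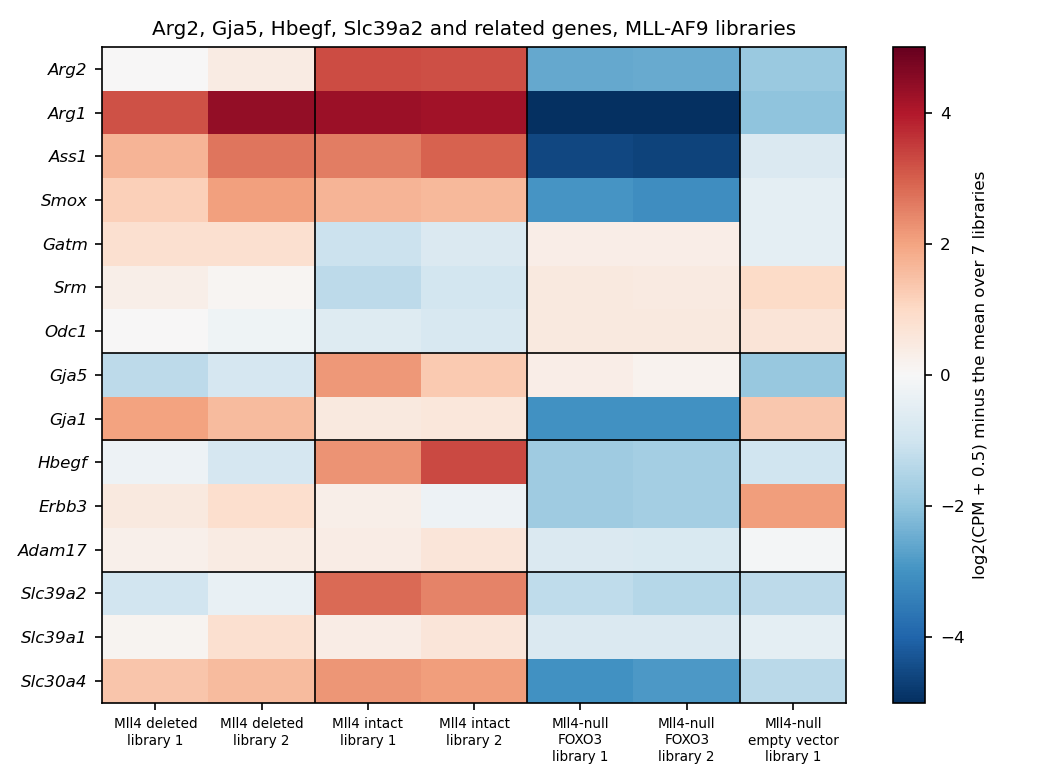
Log2(CPM + 0.5) minus the gene's mean over the 7 MLL-AF9 libraries for Arg2, Gja5, Hbegf and Slc39a2 and genes of their lists; columns are libraries, rows are genes, red is above and blue below the gene's mean. Arg2, Gja5, Hbegf and Slc39a2 are reddest in the 2 intact columns, a pattern that Arg1, Gja1, Adam17 and Slc39a1 do not share, and Gja5 and Gja1 have opposite colours between the FOXO3 and empty-vector columns.

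The promoter of Gja5, which was higher with FOXO3, is printed as the place where a FOXO element could be looked for. It is RefSeq sequence of GRCm38.p6 from 250 bases before to 50 bases after the start of the gene, on the plus strand, and capitals mark the motif matches.
Gja5, chr3:97032152-97032451: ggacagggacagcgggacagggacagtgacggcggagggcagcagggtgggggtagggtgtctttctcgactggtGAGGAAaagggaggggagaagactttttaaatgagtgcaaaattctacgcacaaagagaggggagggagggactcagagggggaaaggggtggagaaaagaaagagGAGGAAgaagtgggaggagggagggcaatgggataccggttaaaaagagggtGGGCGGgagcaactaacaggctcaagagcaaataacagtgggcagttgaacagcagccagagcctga
The window held 2 copies of the PU.1 core, spelled GAGGAA, which 28.3% of 32851 promoters of the same length also held on either strand. It held 1 GC box, spelled GGGCGG, a motif found in 35.7% of those promoters. The FOXO element, spelled TGTTTAC and present in 3.65% of all promoters, was not in the window. An AP-1 site, spelled TGANTCA, occurred in 7.81% of all promoters and was not found in this window either. The same was true of the C/EBP-ATF core, spelled TTGCATC and present in 2.53% of all promoters. A TATA box, spelled TATAAA, was likewise not found, and 13.6% of all promoters held one. No motif of the 6 contains another. Promoter sequence was at hand for 4 of the 6 genes. Prss35 held 1 GC box, Slc39a2 none of the 6 motifs, and none of the 4 windows a FOXO element, which says only that these letters are not in these windows.

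Across the 7 MLL-AF9 libraries the other 5 genes followed each other closely and Gja5 less so. Pearson's r of log2(CPM + 0.5) lay between 0.90 and 0.995 among Klk1b11, Prss35, Hbegf, Slc39a2 and Arg2, and between 0.60 and 0.79 for Gja5 with each of them. These are descriptions over 7 libraries in 4 groups, which share the difference that chose the genes. Among 12396 genes averaging 1 CPM or more, those most like Klk1b11 were Gfra1, a receptor for glial growth factors (r = 0.999), and the basement membrane collagen gene Col4a1 (0.998). Gfra1 had 0.936 and 1.45 CPM in the libraries labelled Mll4 deleted, against 12.8 and 14.4 CPM in the intact ones. Those most like Arg2 were Rnf19b (0.998) and Cd200 (0.998), those most like Slc39a2 were Klk1b1 (0.996) and Fcer1g (0.989), and those most like Hbegf were Vmp1 (0.995) and Htr2a (0.991). Prss35 was most like Osgin1 (0.993) and Esyt2 (0.991), and Gja5 most like Nfe2l1 (0.979) and Jkamp (0.976). Jkamp spans only 20.4 to 22.9 CPM over the 7 libraries, so a high r says nothing of the size of a change.

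Markers of mature blood cells differed between these groups too, in both directions. In RNA of whole cultures, fewer cells of a type and less RNA per cell cannot be told apart. The 13 macrophage markers, all seen in the deleted, intact and empty-vector libraries, summed to 1765 and 2895 CPM in the libraries labelled Mll4 deleted, against 3787 and 4443 CPM in the intact ones, and to 42.5 and 43.8 CPM with FOXO3, against 138 CPM with the empty vector. In the FOXO3 libraries C1qa, C1qb and C1qc had 0 counts. The sum was highest in the intact libraries. Itgax and Clec7a were the 2 of 13 that fell with Mll4 loss, against 6.94% of all genes called lower. Both calls were kept with the FOXO3 pair summed, against 0.854% of all genes. Other macrophage markers did not follow the sum. C1qa, C1qb and C1qc were higher in both deleted libraries without passing the test, with C1qb at 9.46 and 19.8 CPM deleted and 4.62 and 2.61 CPM intact, and Mrc1, Csf1r and Cd14 were highest in deleted library 2. The 12 counted markers of neutrophils and their precursors summed to 21029 and 26647 CPM in the libraries labelled Mll4 deleted, against 13440 and 7918 CPM in the intact ones, the opposite direction to the 6 genes, with 6 of 12 called higher, against 7.97% of all genes (5 with the FOXO3 pair summed, against 1.23%). Those called were Ms4a3, Camp, Prtn3, Ctsg, Elane and Mpo. S100a8 and S100a9 had estimates above 0 without passing. Mmp8 (−1.31 ± 0.43), Ltf (−0.54 ± 0.34), Cxcr2 (−0.21 ± 0.37) and Ngp (−0.03 ± 0.36) went the other way and did not pass either. The 11 megakaryocyte and platelet markers summed to 546 and 661 CPM deleted, against 1075 and 740 CPM intact, with 6 of 11 called lower, against 6.94% of all genes. With the FOXO3 pair summed 2 of them were called, Treml1 and Vwf, against 0.854%.

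Mast cell, basophil and eosinophil markers (13 of 13 seen in these groups) summed to 13860 and 1715 CPM with Mll4 deleted and to 6977 and 3249 CPM in the intact ones, so library 1 of each pair was the higher, as it was for Prss35. With FOXO3 they summed to 413 and 419 CPM, against 3400 CPM with the empty vector. Endothelial markers, of interest for Gja5, summed to 403 and 236 CPM deleted and 293 and 251 CPM intact, and to 36.0 and 35.1 CPM with FOXO3, against 164 CPM with the empty vector, with Cldn5 and Sox17 at 0 in the MLL-AF9 libraries. The endothelial sum was lower with FOXO3, but the estimates of its 7 tested genes went both ways. The log2 fold changes were −2.67 ± 0.36 for Pecam1, −1.26 ± 0.18 for Eng, −2.59 ± 0.77 for Plvap and −4.37 ± 1.52 for Esam. Pecam1 and Eng were called lower by edgeR, 2 of the 7, against 4.93% of all genes. Neither call was kept with the FOXO3 pair summed. The estimates of Kdr (1.49 ± 0.94), Tek (2.30 ± 1.78) and Tie1 (0.58 ± 0.93) were above 0, but none of them passed. With Mll4 loss edgeR called 1 of the 7 lower, Esam (−4.05 ± 0.58, adjusted p = 0.0209), against 6.94% of all genes. That call was not kept with the FOXO3 pair summed. The part of these cell types in the falls of the 6 genes was not tested.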

How the data were processed

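RNA was sequenced from 6 samples in 9 libraries. The deposited files hold raw read counts per NCBI gene number, each library in a file of its own. TopHat2 2.0.11, Bowtie 0.12.8 and the build mm9 are named in the submitters' processing notes. The counter, the annotation and any strand setting are not named in the sources used here. Gene names came from a RefSeq table of GRCm38.p6, which matched 23185 of 23282 gene numbers, and served for names only.

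CPM values were computed from library totals. The 7 MLL-AF9 libraries entered 1 edgeR 4.0.16 fit (R 4.3.3) with 4 groups, TMM scaling, its default filter and the quasi-likelihood test, with Benjamini-Hochberg adjustment and a 0.05 threshold. The Mll4 contrast of this fit was tested on simulated data, drawn with the same dispersion in every library. The real FOXO3 pair lay far closer together than the other pairs, so the simulation cannot show how the fit handles these data. LSK libraries were compared by count ratios with exact (Clopper-Pearson) intervals. Alternatives were other scalings, filters, DESeq2 1.42.0, fewer libraries and a replicate block. The members and lists were chosen with earlier results of these data known. For the connexin list, 1 gene is not reported here and is left out of the counts of that list. Named genes were the 6 members, a set of 14 relatives, the 3 smallest p of each related list and contrast, and the 2 genes most like each member. Klk1b22, the genes overlapping Arg2 and Gja5, and calls in lists beyond these were chosen after their values were seen.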

Additional observations from a re-analysis of the deposited data

Results flagged for a closer look

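Prss35 stood apart because its difference between libraries labelled Mll4 deleted and those with Mll4 had opposite directions in 2 kinds of cells. In LSK cells the log2 ratio, deleted over wild type, was 1.20 from 175 and 78 counts, whereas in MLL-AF9 cells both deleted libraries lay below both intact ones. The difference between the cell kinds was not tested. The LSK side rests on 1 library of about 50 cells per genotype, and the gene was listed for its fall on the MLL-AF9 side. Between the same LSK libraries Kmt2d differed more, with 13.9 CPM in the one labelled deleted and 1.88 CPM in wild type.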

How the results depend on the processing

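The falls of the 6 genes with Mll4 loss kept their direction under all 17 alternatives, between −5.22 for Prss35 and −2.66 for the same gene. The genes were chosen for large falls in these same libraries, so the kept direction follows from that choice and is no support. Of 2237 genes called for Mll4 loss, counts under alternatives were 3540 with total-count scaling, which moved the all-gene median of log2 fold changes from −0.03 to 0.24, 3695 with DESeq2, 0 in the fit of the 4 compared libraries (smallest adjusted p = 0.0514, while 3498 genes had an unadjusted p under 0.05), 312 with the FOXO3 pair summed, and 302 to 3106 with 1 library left out (302 and 314 without FOXO3 library 1 or 2, 787 and 1199 without intact library 1 or 2). For FOXO3 the 1069 calls became 2185 with DESeq2, 9710 in the fit of the 3 compared libraries, 178 with the pair summed, and 140 to 2213 with 1 library left out (159 and 140 without FOXO3 library 1 or 2, 2213 and 2121 without deleted library 1 or 2). Without the empty-vector library this contrast could not be fitted. The cause was not tested.

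The library numbers share no stated source: deviations of same-numbered deleted and intact libraries correlated at 0.25 across 12422 genes, and those with FOXO3 at 0.01 and −0.01. Xist was high in deleted library 1 and intact library 2, so a block by library number does not match these pairs by Xist. With the replicate block 2393 genes were called for Mll4 loss and 1080 for FOXO3, Klk1b11 passed for FOXO3 (adjusted p = 0.0280, against 0.183 with the FOXO3 pair summed) and Prss35 turned to 0.12. With 1 library left out, Slc39a2 ran from −0.13 to 0.038 for FOXO3, turning to 0.038 without FOXO3 library 2. Neither gene passed under any alternative. Levels of the intact pair with TMM factors, and the LSK ratios with TMM factors, moved within 1 SD or within their counting intervals. Depth limits Klk1b11, Prss35 and Arg2 in Mll4-null cells, at 28 counts or fewer per library.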
